A study of Homo sapiens with 12 samples.

Results

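The genes described are the 3 human members of the TRMT10 family, TRMT10A, TRMT10B and TRMT10C, and HSD17B10, the protein partner of TRMT10C in mitochondria. They were chosen by name, 4 genes of the 20056 protein-coding genes of the gene table, and looked up in each of the 3 tables the authors deposited. HEK293T, the cell line of all samples, derives from human embryonic kidney and expresses the large T antigen of SV40. For m6A-seq, cells received TRMT10A siRNA (siTRMT10A) or control siRNA (siCtrl), and RNA pulled down with an antibody against N6-methyladenosine (m6A) was sequenced beside input RNA, with 2 samples for each of the 4 combinations. For CLIP-seq, in which ultraviolet light links a protein to the RNA it touches, cells overexpressed TRMT10A (3 samples) or FTO (1 sample), an enzyme that removes m6A, and the protein was recovered on anti-Flag beads. The labels do not describe the overexpression constructs, and the CLIP cells carry no siRNA label.

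TRMT10 proteins are methyltransferases that modify the purine at the ninth position of tRNAs, between the acceptor and D stems. TRMT10A acts on guanosine in nuclear-encoded tRNAs, and TRMT10B acts on an aspartate tRNA. TRMT10C works in mitochondria bound to HSD17B10, a dehydrogenase that also takes part in isoleucine breakdown. The TRMT10C and HSD17B10 complex methylates mitochondrial tRNAs and, with the nuclease PRORP, forms mitochondrial RNase P, which cuts the 5′ ends of mitochondrial tRNAs from their precursors. TRMT10A was both the gene knocked down and the protein recovered by CLIP in this study.

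The 3 tables are lists of called peaks, so a value per sample, a spread between replicates and a read depth were not given, and none of the comparisons below could be tested over samples. A gene without an entry was not called, which does not show that it lacks the mark or the binding. The lists give no transcript levels. The size of the knockdown and the markers of the cell line were therefore not checked. A score is the authors' own and was used only to rank entries within its list.

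The members fell into 3 patterns. TRMT10A had 1 differential m6A peak and 7 TRMT10A CLIP sites, and no FTO cluster. HSD17B10 had entries in all 3 tables, with 2 differential m6A peaks, 1 TRMT10A site and 1 FTO cluster. TRMT10B (chromosome 9, 37752901 to 37778972) and TRMT10C (chromosome 3, 101561868 to 101566446) had no entry in any table, and no entry of another gene lay within their spans on either strand. Coordinates are those of hg38, and gene spans those of GRCh38.p14. Of all protein-coding genes, 8.56% had a differential m6A peak, 12.8% a TRMT10A site and 15.5% an FTO cluster. Entries in all 3 tables, as in HSD17B10, were found in 1.8% of protein-coding genes (362 genes, 95% Wilson interval 1.63 to 2%, counting error only). An entry in at least 1 table, as for TRMT10A and HSD17B10, was found in 25.6% of them, and absence from every table, as for TRMT10B and TRMT10C, was the case for 74.4%.

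One stretch of sequence lies inside an m6A peak of a member and could be read from the RefSeq promoter table. HSD17B10 (chromosome X, 53431258 to 53434376, minus strand) had an m6A peak whose first block began at the annotated gene start, and the stretch shows where the translation start falls within that block. It covers 30 bases of GRCh38.p14, chrX:53434331-53434360 on the minus strand, written 5′ to 3′ with the start codon in capitals.
HSD17B10: gtggccggcgacaagATGgcagcagcgtgt
The start codon began at base 32 of the annotated transcript, inside the first block of 58 bases. The peak therefore held the translation start.

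TRMT10A (chromosome 4, 99546711 to 99564039, minus strand) had an m6A peak that covered 7 exon blocks, 1291 bases in all, from 99548806 to 99559327. In the authors' deposited table its log2 fold change between knockdown and control was 1.48 (adjusted p = 3.98e-19), and its fold enrichment of pulldown over input was 16.4. Which condition was divided by which is not stated, so positive is higher in the knockdown only if the order was treated over control. TRMT10A was also the siRNA target. Its transcript levels were not given, and the part of a change in them in this value was not tested. Of the 2023 differential peaks, 134 (6.62%) had a value at least as high in the authors' deposited table, and 71 (3.51%) had an adjusted p at least as low. The median positive peak of the authors' deposited table stood at 0.70. By enrichment, 187 peaks (9.24%) were at or above the TRMT10A value, against a median of 4.91 in the authors' deposited table.

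The number of blocks in the TRMT10A peak set it among a small group. Its length of 1291 bases was less unusual, since 318 peaks (15.7%) were at least as long. Of the 2023 peaks, 39 (1.93%) had 7 or more blocks, against a median of 2, and all 39 were positive in the authors' deposited table. Among single-block peaks 56.8% of 871 were positive. Within the group of 39, TRMT10A had the highest log2 fold change of the authors' deposited table. The other 38 ran from 0.17 to 1.32 in the authors' deposited table, with a median of 0.41, and the next highest was OGFR, the opioid growth factor receptor gene. By enrichment TRMT10A was the eighth of the 39. The peak's blocks left 4712 bases of the annotated gene uncovered before the first block and 2095 after the last, introns included.

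**Figure D1:**
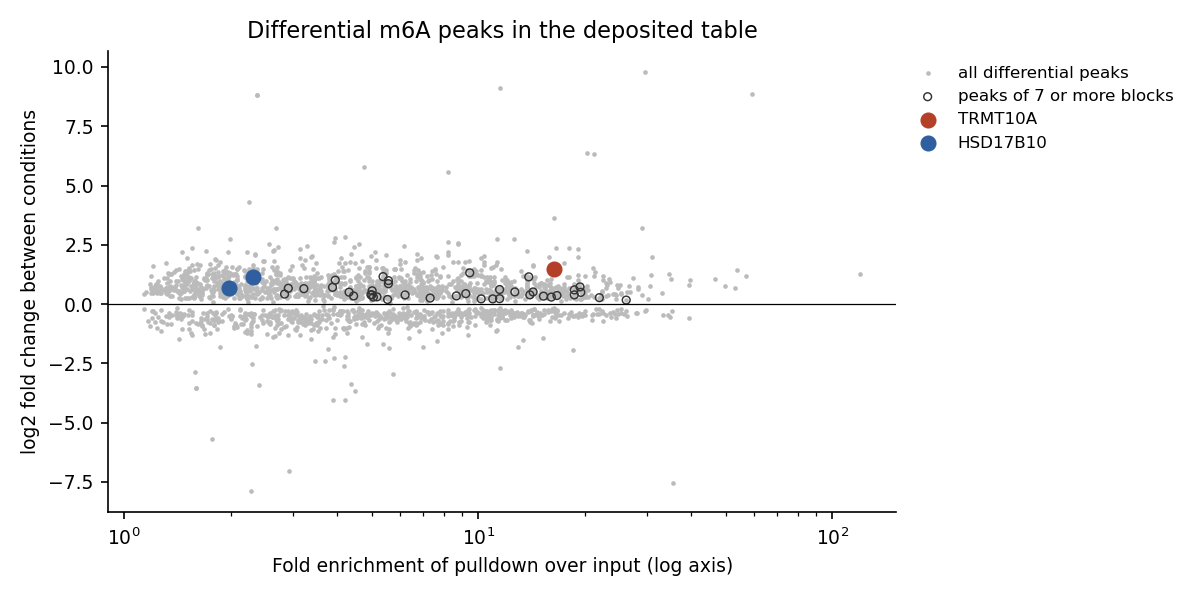
Each point is a differential m6A peak of the authors' deposited table, with the fold enrichment of pulldown over input on a log x axis and the log2 fold change between conditions on the y axis. TRMT10A, at 16.4 and 1.48, is the highest of the 39 open circles, which mark peaks of 7 or more blocks; both HSD17B10 peaks lie at low enrichment and above 0.

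The TRMT10A protein was crosslinked to its own transcript at 1 position in each of the exons 2 to 8 of NM_152292, an 8-exon transcript. All 7 sites were annotated as exonic, with none in introns or annotated UTRs, and were 1 to 4 bases wide. The CLIP cells overexpressed TRMT10A from constructs the labels do not describe, so RNA of a construct and of the gene itself cannot be told apart. Listed from the 5′ end, the peak heights of the pooled CLIP samples were 74 in exon 2, 65 in exon 3, 56 in exon 4, 55 in exon 5, 84 in exon 6, 65 in exon 7 and 56 in exon 8. Heights thus stayed within 1.53-fold of each other across the coding exons, with the maximum in exon 6 at 99553897. The p-value in the authors' peak names was 5.08e-09 for all 7 sites. A single p for all sites was common, found in 80.3% of the 1124 protein-coding genes with at least 2 sites, so it is not a separate p for each position.

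Each CLIP site lay within a different block of the m6A peak, so that 7 of 7 sites and all 7 blocks were matched. The blocks ran over the same exons that held the sites, so this match largely follows from the peak covering those exons. With the blocks joined end to end, neighbouring sites were 62 to 166 bases apart, with a median of 93.5. The seventh block, of 551 bases, held its only site at base 38, and no site was called over the rest of it. Sites at base 38 or 39 of their block, counted from its 5′ edge, made up 4 of the 7, in exons 5 to 8. In exons 2, 3 and 4 the sites began at bases 139, 131 and 49.

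**Figure D2:**
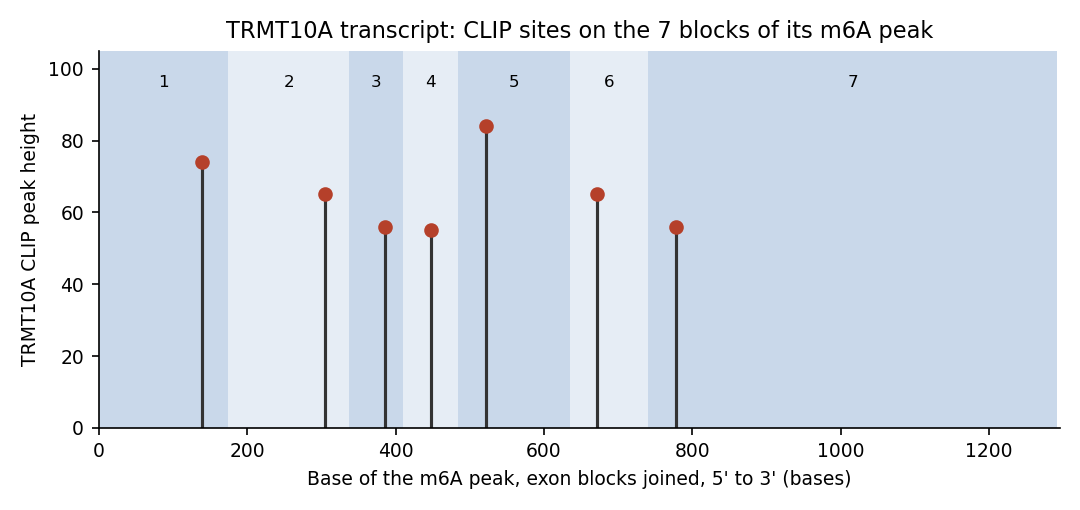
The x axis is the base of the TRMT10A m6A peak with its 7 exon blocks (numbered, shaded in turn) joined 5′ to 3′, and each stem is a TRMT10A CLIP site with its peak height on the y axis. One site stands in every block, at heights between 55 and 84.

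No other gene with as many bound exons had sites this high throughout. Coding-exon sites in at least 7 exons were found in 66 protein-coding genes. TRMT10A had the highest median height of them, 65, against 50 for the next, the elongation factor gene EEF2, and a median of 21.5 over the other 65 genes. The lowest TRMT10A site, at 55, was above the lowest site of each of the other 65 genes, which was at most 36. Its highest site, at 84, was also above their maximum of 76. The cut of 7 exons was the count of TRMT10A itself. Below it, ACTB (5 exons) had a median of 61.5 and RACK1 (4 exons) a highest site of 95. Across all 1634 protein-coding genes with a coding-exon site, 5 had a median at or above that of TRMT10A, the other four (the histone genes H1-2, H1-4 and H3C2 and the ribosomal protein gene RPS23) with sites in at most 2 exons. Over all sites, introns included, 39 of 2563 genes (1.52%) reached its median. TRMT10A was overexpressed in these cells, and more of its transcript and more contact per transcript cannot be told apart here.

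**Figure D3:**
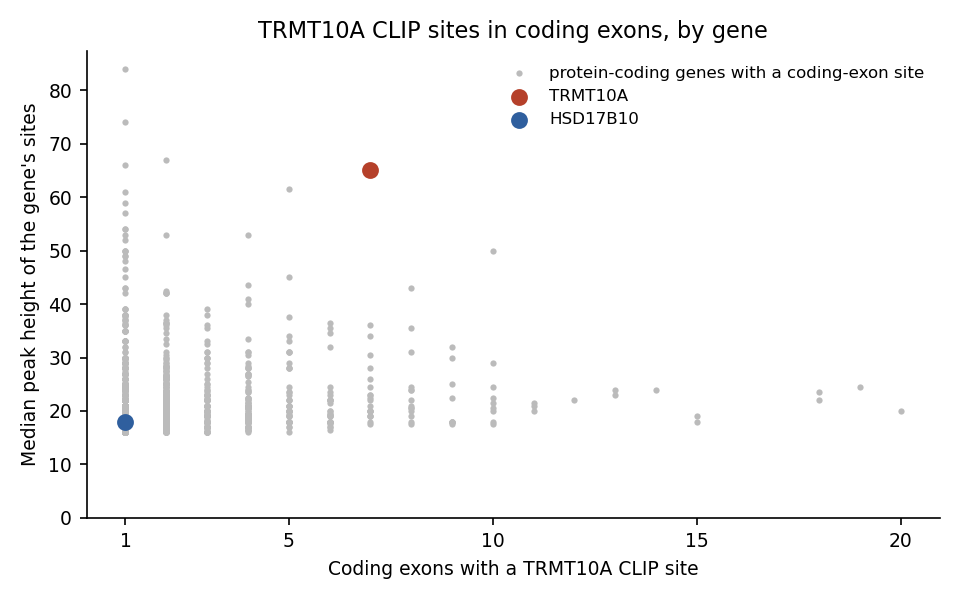
Each point is a protein-coding gene with at least 1 coding-exon TRMT10A CLIP site, with the number of coding exons that hold a site on the x axis and the median peak height of those sites on the y axis. TRMT10A, at 7 exons and a median height of 65, stands above all other genes with 7 or more bound exons, and HSD17B10 sits at 1 exon and 18.

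FTO clusters were absent from the TRMT10A transcript. Among the other 65 genes with TRMT10A sites in at least 7 coding exons, 62 had an FTO cluster, and 3 had none. Over all protein-coding genes 15.5% had an FTO cluster, so having none was the more common state there. Among genes with an entry in any table, as TRMT10A has, 60.7% had an FTO cluster. The FTO library came from cells labelled as overexpressing FTO and not TRMT10A, so the transcript level of TRMT10A can differ between both CLIP experiments, and its part in this difference was not tested.

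HSD17B10 had 2 differential m6A peaks, both positive, one at each end of the gene. The 5′ peak joined a first block of 58 bases with a second of 147 bases (53433740 to 53433886), where exon 2 of NM_004493 lies. Its log2 fold change was 1.13 (adjusted p = 3.63e-06) and its fold enrichment 2.32 in the authors' deposited table. The 3′ peak, 118 bases from 53431258 to 53431375, ended at the annotated gene end, with a log2 value of 0.67 (adjusted p = 0.00372) and a fold enrichment of 1.98 in the authors' deposited table. Both were weakly enriched peaks, since 77.1% and 83.5% of all peaks had a fold enrichment at least as high. By log2 fold change, 14.9% of all peaks were at or above the 5′ peak and 35.6% at or above the 3′ peak.

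Such a placement, matched to the base, was uncommon in the table. Of 1947 peaks in protein-coding genes, 22 (1.13%) reached the annotated gene start to the base and 102 (5.24%) the annotated gene end. In 6 of 1717 genes (0.349%), HSD17B10 among them, the peak or peaks reached both ends. A single peak that ran from end to end would also count here. Most of the 1717 genes had a single peak, and peaks a few bases short of an annotated end were not counted. The comparison was not planned and follows the placement of HSD17B10. Of the 212 genes with at least 2 differential peaks, 139 (65.6%) had only positive ones, as HSD17B10 did, 24 had only negative ones and 49 had both signs.

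Both CLIP lists touched HSD17B10 lightly. The TRMT10A site, a single base at 53433837 in exon 2 of 6, had a height of 18 (p = 4.51e-10 in the authors' peak name), and 71.8% of all TRMT10A sites were at least as high. It lay at base 50 of the second block of the 5′ m6A peak. The FTO cluster, 32 bases from 53431478 to 53431509 in the coding sequence, held 2 conversion events, the minimum of that list, shared with other clusters. It was separated from the 3′ m6A peak by 102 bases and shared no base with it or with the TRMT10A site. HSD17B10 therefore had TRMT10A binding inside one m6A peak and an FTO cluster outside the other.

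**Figure D4:**
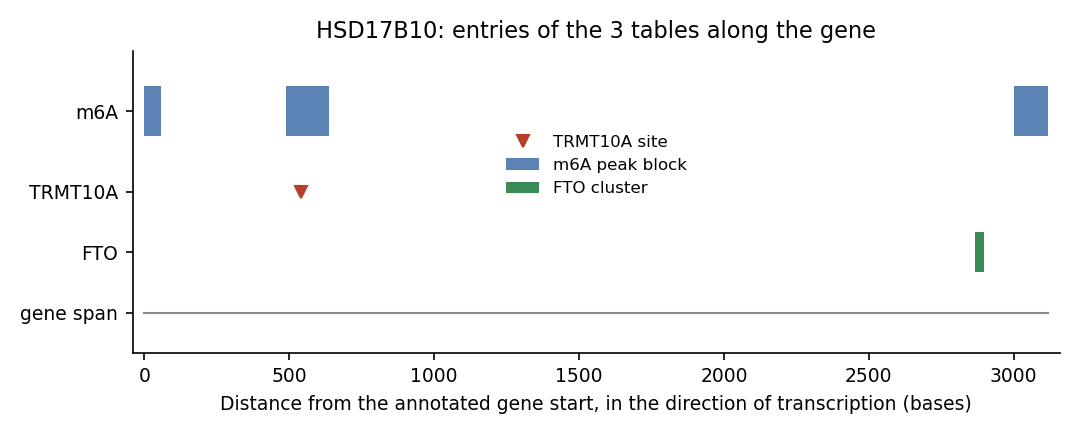
The x axis is the distance in bases from the annotated start of HSD17B10 in the direction of transcription, with m6A peak blocks, the TRMT10A site and the FTO cluster on separate rows. The m6A blocks lie at both ends of the gene, the TRMT10A site within the second block and the FTO cluster 102 bases before the last block.

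Mitochondrial RNase P showed no common pattern over its 3 proteins. TRMT10C had no entry, HSD17B10 had positive m6A peaks, and the 1 peak of the nuclease PRORP stood at -0.52 on the log2 scale (adjusted p = 0.000851) in the authors' deposited table. PRORP also had 1 FTO cluster of 3 conversion events and no TRMT10A site.

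Of 33 genes of mitochondrial tRNA processing and RNA maintenance, 7 had a differential m6A peak, 3 with a positive and 5 with a negative one, TBRG4 having both. A TRMT10A site was found in 5 and an FTO cluster in 11. For comparison, 8.56% of all protein-coding genes had a differential m6A peak, 5.72% a positive and 3.08% a negative one. The shares of all protein-coding genes were 12.8% for a TRMT10A site and 15.5% for an FTO cluster. The 9 peaks had a median log2 fold change of -0.28 in the authors' deposited table, against 0.46 over all 2023 peaks. Negative in the authors' deposited table were the guanosine methyltransferase TRMT5 (-0.46), the RNA-binding protein SLIRP (-0.28) and the FASTK family gene FASTKD2 (-0.61). TBRG4, of the same family, had -0.61 and 0.33 in the authors' deposited table. Positive in the authors' deposited table were the pseudouridine synthase PUS1 (0.99 and 0.46) and the ribosomal RNA methyltransferase MRM3 (0.74). Heights of TRMT10A sites reached 24 at MTO1, a mitochondrial tRNA modification enzyme, 20 at FASTK and at GTPBP3, the partner of MTO1, and 19 at TRMT5, all below the lowest site of TRMT10A. Conversion events of FTO clusters reached 20 at MTO1, 15 at the ribosomal RNA methyltransferase NSUN4 and 4 at FASTK.

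Of 29 genes for tRNA methylation in the nucleus and cytosol, including the demethylase ALKBH3, 3 had a differential m6A peak, 3 a TRMT10A site and 6 an FTO cluster. The shares over all protein-coding genes were 8.56%, 12.8% and 15.5%, and these counts lie near them. In the authors' deposited table the log2 fold changes were 1.56 for METTL1, which methylates guanosine at the variable loop, 0.70 for the uridine methyltransferase TRMT2A and -0.46 for METTL2B, a cytidine methyltransferase. THUMPD3, a guanosine methyltransferase, had the highest TRMT10A site of these genes at 47, TRMT1 had 21 and WDR4, the partner of METTL1, had 18. Conversion events of FTO clusters were at most 5, at TRMT112, an activator of several methyltransferases.

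Of 22 genes for the breakdown of branched-chain amino acids and fatty acids in mitochondria, the metabolic setting of HSD17B10, 1 had an m6A peak. It was HIBADH, an enzyme of valine breakdown, with a log2 fold change of -0.53 (adjusted p = 0.0447) in the authors' deposited table. TRMT10A sites were found in 3 genes of fatty acid oxidation, with heights of 19 at HADHB, 18 at HADH and 16 at HADHA, close to the 18 of HSD17B10. FTO clusters were found in 7 genes with at most 3 conversion events. Over all protein-coding genes, 8.56% had an m6A peak, 12.8% a TRMT10A site and 15.5% an FTO cluster.

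The genes with entries most like those of each member were found by Euclidean distance over 4 measures on the log2 scale, which were the number of TRMT10A sites and of FTO clusters (each plus 1), the highest TRMT10A height and the m6A log2 fold change of the peak with the lowest adjusted p. Genes without a site or peak had 0 for the last pair, and each measure was divided by its SD, across 5126 protein-coding genes with an entry in any table. Nearest to TRMT10A were the zinc finger gene ZNF358 (distance 0.685), the transcription factor gene FOXC1 (0.962) and FBXL19 (1.16). They had 6, 5 and 5 TRMT10A sites and no FTO cluster, as TRMT10A, but their highest sites stood at 31, 31 and 45, well under its 84. Their sites lay in 1, 1 and 4 exons, against 7 for TRMT10A, which the distance did not measure. At the peak with the lowest adjusted p, the m6A log2 fold changes in the authors' deposited table were 1.38, 1.15 and 0.90. HSD17B10 had closer neighbours, FOXD1 (0.0168), TMEM259 (0.207) and MCRIP1 (0.215), each with 1 TRMT10A site and 1 FTO cluster. Their log2 fold changes, chosen in the same way as the 1.13 of HSD17B10, were 1.14, 1.07 and 1.25 in the authors' deposited table. TMEM259 had a further peak at 1.29 in the authors' deposited table. With TRMT10B and TRMT10C in no table, no likeness could be given for them.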

How the data were processed

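The m6A table holds differential peaks of siTRMT10A against siCtrl, with a log2 fold change, an enrichment ratio over the input and p-values as base-10 logarithms, all deposited by the authors. The largest adjusted p was 0.0501, so only called peaks are listed. The TRMT10A list holds pooled unique tags annotated with HOMER annotatePeaks.pl on hg38, per the file headers, with peak height as the deposited score. The FTO list gives clusters with conversion events as the deposited score. The submitters' processing notes name hg38 and DESeq2, without a version or role. No aligner is named in the sources used here.

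A TRMT10A site took the gene in its peak name where that gene's span holds it, otherwise the annotated gene, and sites within small RNA genes took those. The 6571 lines gave 5650 distinct sites. The FTO list gave 9579 distinct clusters. Gene names came from a GRCh38.p14 table, which matched 2006 of 2023 m6A names. m6A starts were moved to counting from 1, and FTO coordinates were taken as given. Overlap needed 1 shared base on the same strand. Planted intervals and profiles were tested on simulated data. Members and lists were chosen with earlier results of these data known. Named genes were the members, list genes with an m6A peak, up to 4 list genes per CLIP list by score, and the 3 genes nearest to each member with an entry. OGFR, EEF2 and the genes whose median height reached that of TRMT10A were named after their values were seen. Planned comparisons of protein sequences and of sequences at sites were not run, since no protein table or genome was used. Tools were Python 3.11.15 with pandas 2.3.3, numpy 2.4.6, matplotlib 3.10.9 and scipy 1.17.1.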

Additional observations from a re-analysis of the deposited data

How the results depend on the processing

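Of 45 alternative values for the members, 40 kept to within 1.5 times the reported value. Many of the 40 were counts of 0, such as those of TRMT10B and TRMT10C, which stricter cut-offs or repeated lines could not change. The other 5 were these. With sites and clusters at or above their list's median score (20 for height, 3 for conversion events), HSD17B10 had 0 TRMT10A sites and 0 FTO clusters. It had 1 m6A peak at an absolute log2 value of 1 or more. It had 2 FTO entries when repeated lines were counted, since 2 transcripts list the same cluster. The share of entries at least as high as the top TRMT10A height in TRMT10A fell from 1.22% to 0.0844% among coding exons of protein-coding genes. The 7 TRMT10A sites of TRMT10A were counted under each gene assignment tried, at the median height and with repeated lines. The 2 other overlap rules were looser than the main one, so the 7 overlaps with its m6A peak could not be lost under them. Among genes with an entry in any table, backgrounds were 33.5% (m6A), 50% (TRMT10A) and 60.7% (FTO). The 3 gene lists held 17, 11 and 10 genes with an entry, and at the stricter thresholds 0, 1 and 0 genes with an m6A peak, 3, 2 and 0 (from 5, 3 and 3) with a TRMT10A site and 9, 5 and 3 (from 11, 6 and 7) with an FTO cluster. No paired analysis was possible because the tables pool the replicates, which also prevented leaving out a replicate. Depth is unknown.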

Other observations

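The position of 4 of the 7 TRMT10A sites of its own transcript at base 38 or 39 of an m6A block, each in a block after the first, was compared with other genes after it was seen. In the second and later blocks of multi-block m6A peaks, where the 5′ edge is an edge between blocks, the other 95 genes had 129 coding-exon sites. Of these, 7 (5.43%) lay at bases 36 to 40, against 2.14% of the block length in that window on average. Bases 31 to 35 held 9 sites, bases 41 to 45 held 1 and bases 1 to 30 held 9. The median site of the other genes began at base 127. Their blocks included much longer ones, such as 2876 bases in REPIN1. The 4 TRMT10A blocks had 75, 150, 106 and 551 bases, and base 127 lies beyond the end of those of 75 and 106. Neither the median nor the share in the window was limited to blocks of similar length, so they do not show how unusual the position was. This is a description, with no test, and the reason for the position was not tested.

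All 39 m6A peaks of 7 or more blocks were positive in the authors' deposited table, TRMT10A among them, against 66.5% of all 2023 peaks. The group was defined by the block count of the TRMT10A peak after its value was known, so the count is a description.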
